A study of Homo sapiens with 12 samples.

Results

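The H3K27ac landscape described here is that of the unperturbed state of a lymphoma line, read from the 2 control clones, N4-8 and N5-8. They are 2 of the 12 samples of the series, which holds 6 immunoprecipitated libraries and their 6 inputs. The line is SUDHL4, established from a diffuse large B-cell lymphoma and classed with the germinal-centre type. Both control clones had been edited with CRISPR/Cas9 in PPP1R12C, a site used as a neutral target, and are wild type for the acetyltransferase genes CREBBP and EP300. Each was grown from 1 cell by limiting dilution, so each stands for 1 clone of 1 line and for no other lymphoma. The cells were grown in IMDM with serum, harvested in log phase and fixed with 1% formaldehyde, and no other agent is named. Peaks on chromosomes 1 to 22 were joined into regions wherever peaks of the 2 lists shared at least 1 base. This gave 45169 regions, of which 31482 (69.7%) held a peak of each clone and form the shared landscape. With 2 clones of 1 genotype there is no test to make, and the values of both are set side by side.

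Acetylation of lysine 27 on histone H3 is placed mainly by CREBBP and EP300 and marks promoters and enhancers in use. Long stretches of dense acetylation often lie at the genes that define a cell's identity. Germinal-centre B cells mutate and select their antibody genes under the repressor BCL6, moving between a dark zone of division and mutation and a light zone of antigen selection, and leave this state when PRDM1 and IRF4 start the plasma cell programme.

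Sequences of genes at the main loci are shown first, taken from RefSeq and not from the bases under the peaks. The 11th widest shared peak lay over MIR142, the gene of a microRNA made in blood cells. Its mature products are printed 5′ to 3′ from RefSeq, with the seed, bases 2 to 8, in capitals:
hsa-miR-142-3p: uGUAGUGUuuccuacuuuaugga
hsa-miR-142-5p: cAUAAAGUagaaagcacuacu
The seeds of the 2 arms differ, so the locus gives 2 products that read different target sites.

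Promoters of genes at the widest peaks and largest domains were also read from RefSeq (GRCh38.p14), as the 250 bases before the start of the first entry of each symbol. Of 27 such genes 22 matched an entry, and of the 78 genes of the B-cell lists 61 did. The octamer ATTTGCAT (or ATGCAAAT on the other strand), the site read by the POU factors POU2F1 and POU2F2, was found in 3 of the 22. It was found in 3 of the 61 and in 454 of 27305 promoters of all genes (1.66%). Capitals mark it in the promoters of ST6GAL1, SEL1L3 and SMAD3, whose coordinates are of GRCh38 and cannot be set against the hg19 positions of the peaks:
ST6GAL1 (chr3:186930276-186930525, plus strand): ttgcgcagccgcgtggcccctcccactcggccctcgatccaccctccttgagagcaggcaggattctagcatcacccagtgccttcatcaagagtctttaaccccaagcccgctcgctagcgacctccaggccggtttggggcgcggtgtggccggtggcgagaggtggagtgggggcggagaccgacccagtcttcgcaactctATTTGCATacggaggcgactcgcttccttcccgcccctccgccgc
SEL1L3 (chr4:25863567-25863816, minus strand): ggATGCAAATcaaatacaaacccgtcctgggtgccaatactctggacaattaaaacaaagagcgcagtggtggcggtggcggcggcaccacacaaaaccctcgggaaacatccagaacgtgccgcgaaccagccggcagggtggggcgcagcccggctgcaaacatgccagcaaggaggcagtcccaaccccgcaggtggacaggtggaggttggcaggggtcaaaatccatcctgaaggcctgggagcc
SMAD3 (chr15:67065352-67065601, plus strand): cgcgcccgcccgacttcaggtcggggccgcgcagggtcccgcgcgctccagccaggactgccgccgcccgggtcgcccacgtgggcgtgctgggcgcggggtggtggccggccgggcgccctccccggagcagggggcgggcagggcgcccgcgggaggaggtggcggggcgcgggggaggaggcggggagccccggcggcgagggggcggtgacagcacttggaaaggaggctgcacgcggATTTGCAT
The octamer began 45 bases before the start in ST6GAL1, 248 bases before it in SEL1L3 and 8 bases before it in SMAD3. GAGGAAGT (or ACTTCCTC), a form of the purine-rich site of ETS factors such as SPI1, was found in 1 of the 22, in 2 of the 61 and in 582 of all promoters (2.13%). The promoter of RFTN1 held it, in capitals here:
RFTN1 (chr3:16513700-16513949, minus strand): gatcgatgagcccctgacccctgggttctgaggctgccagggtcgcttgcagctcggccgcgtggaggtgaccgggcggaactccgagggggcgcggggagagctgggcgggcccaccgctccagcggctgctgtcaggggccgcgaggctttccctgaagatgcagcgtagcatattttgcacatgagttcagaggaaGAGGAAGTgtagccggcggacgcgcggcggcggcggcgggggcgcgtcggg
These 2 motifs were picked for display after 10 had been searched on both strands. CAGCTG was found in 3 of the 22 promoters and in 13.8% of all, and CCAAT (or ATTGG) in 4 and in 33.0%. TGACGTCA was found in 1 and in 1.77%, TTCCTCTT (or AAGAGGAA), which shares bases with the ETS form, in 1 and in 2.61%, and an EBF site in 1 and in 1.08%. CCGGAAGT (or ACTTCCGG), an interferon response element and the kappaB site were found in none of the 22, beside 3.64%, 3.07% and 0.183% of all. Of the 61, CCAAT was found in 14, CAGCTG in 8, and TGACGTCA, TTCCTCTT and the interferon response element in 4 each. Each of these counts was above those of the 2 motifs displayed. CCGGAAGT and the kappaB site were found in 1 each, and the EBF site in none. A match describes the letters in this window and nothing more.

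The 2 lists differed in length and were alike in extent. N4-8 had 45483 peaks on the autosomes covering 32.9 Mb (1.14% of their length), and N5-8 had 39377 peaks covering 30.4 Mb (1.06%). Median peak width was 427 bases in N4-8 and 458 in N5-8. N5-8 had fewer peaks in all but more wide ones: 313 peaks of at least 5 kb against 254 in N4-8. Bases covered in both clones came to 26.8 Mb of 36.5 Mb covered in either, a ratio of 0.733, and took up 0.930% of the autosomes. The labels give an average read number over all samples and none for a clone, so no width here carries a counting interval.

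Shared regions were mostly short. The median shared region had 528 bases covered in the clone with the smaller value (quartiles 259 and 1077). In 25367 of the 31482 regions (80.6%) each clone had 1 peak. The covered lengths of the 2 clones followed each other over the 31482 regions (Spearman rho 0.900), which share the sequence and the line, and the median log2 ratio of N5-8 to N4-8 was -0.07.

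The widest shared peak lay on chromosome 3 between BCL6, the master repressor of the germinal centre, and LPP, a cytoskeletal adaptor gene next to it. At chr3:187655397-187702812 (hg19), 192 kb from BCL6 and 228 kb before LPP, N5-8 had a peak of 46692 bases and N4-8 one of 24921. The number of bases covered in the region was nearly the same, 46567 in N4-8 and 47042 in N5-8. N4-8 held them in 6 peaks and N5-8 in 2, so the gap in peak width was one of how the stretch was divided. A further peak of the top 15 lay within LPP itself at chr3:187951631-187966070, with 11951 bases in N4-8 and 14440 in N5-8. The whole interval from BCL6 to LPP, 467 kb long, held 35 shared regions, 3 wide domains as defined below and 109 kb of covered bases in N4-8 against 107 kb in N5-8 (23.4% and 22.8% of its length).

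SEPTIN9, a septin of the cytoskeleton, held 2 of the 15 widest peaks. The first, chr17:75444954-75459448, was 14489 bases wide in N4-8 and 14484 in N5-8. The second, chr17:75432101-75443598, was 11249 and 11039 bases wide. SEPTIN9 thus had nearly equal peaks in the 2 clones, a tighter match than at the BCL6 and LPP stretch. LAPTM5, a lysosomal protein that dampens antigen receptor levels, had a peak over its start at chr1:31217813-31231548 of 13730 bases in N4-8 and 13347 in N5-8. DTX1, a regulator of Notch signalling, had one over its start at chr12:113492317-113504333 of 11997 and 12017 bases.

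The start of SEL1L3, a membrane protein gene whose promoter is printed above, lay under a peak at chr4:25864851-25883339 of 14052 bases in N4-8 and 18487 in N5-8. Here too the covered bases were closer than the widths, at 18354 and 18487. RHOH, a blood-cell GTPase and a known target of aberrant hypermutation, had a peak over its start at chr4:40190404-40203394 of 9721 bases in N4-8 and 11039 in N5-8. The start of LCK, a kinase best known from T cells, lay under a peak at chr1:32713186-32723740 of 9714 and 10336 bases that also reached FAM167B. LCK was thus covered in both clones, while none of the 6 T cell markers counted further on had a shared region at the start.

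Next to the kappa light chain constant gene IGKC, at chr2:89127489-89148387 and 8.49 kb from it, the widest peak had 11464 bases in N4-8 and 19302 in N5-8. The covered bases in that region were 19964 and 20634. The MIR142 peak, chr17:56407663-56417866, was 10204 bases wide in N4-8 and 10138 in N5-8. The group was closed by CUX1, a homeobox gene (chr7:101496936-101509501, 12206 and 10291 bases), and RELT, a receptor of the TNF family (chr11:73087435-73099720, 9976 and 12271 bases). The CUX1 peak lay within the gene body, and the RELT peak lay within 1 kb of the start. Some wide peaks lay in no placed gene. One, chr6:88623049-88637537, between AKIRIN2 and SPACA1, was 12945 bases wide in N4-8 and 14476 in N5-8. Another, chr3:178228672-178238612, was 9829 and 9819 bases wide and lay 15.6 kb before KCNMB2, a potassium channel subunit.

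**Figure D1:**
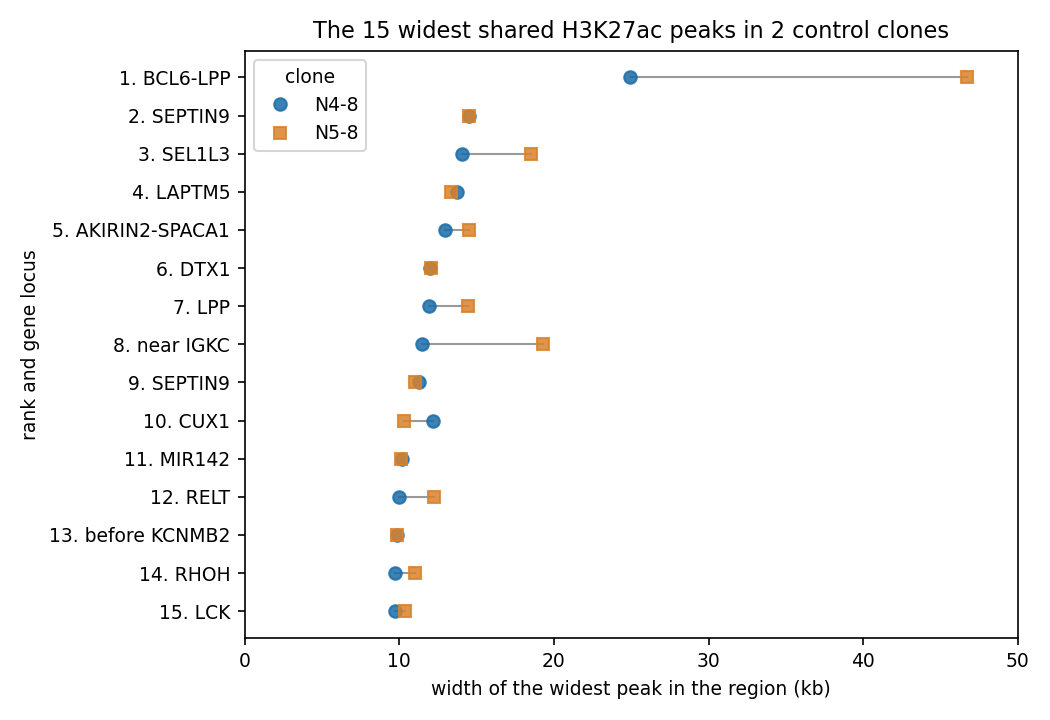
Width in kb of the widest peak of each clone (circles for N4-8, squares for N5-8) in the 15 shared regions ranked highest by the smaller width, named by locus. The clones sit far apart at the BCL6 and LPP stretch (24921 and 46692 bases) and nearly coincide at SEPTIN9, DTX1 and MIR142.

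Shared regions stood in clusters. Of the 31460 gaps between neighbouring shared regions 60.4% were no longer than the distance customary for stitching enhancers, and joining across them gave 12480 stitched domains, of which 5352 (42.9%) were 1 region alone. A domain with at least 10 kb covered in both clones was called wide, and 409 (3.28%) were. These held 4700 of the shared regions (14.9%) on 15.0 Mb (0.520% of the autosomes), and 22.7% of the covered bases of shared regions in N4-8 and 23.4% in N5-8. A wide domain had a median span of 32.4 kb and a median of 10 regions, and 46.9% of its span was covered at the median. Their covered lengths in the 2 clones followed each other (Spearman rho 0.943 over 409 domains chosen for being wide in both).

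The largest domain was again the stretch between BCL6 and LPP, and it stood apart from the next, except when peaks had to overlap by 50% of both widths, where it lost its first rank. At chr3:187614104-187724965, 110.862 kb long, peaks covered 86.3 kb in N4-8 and 85.6 kb in N5-8, filling 77.9% and 77.2% of it. The second, chr1:226819800-226928455, over the start of ITPKB, an inositol trisphosphate kinase of lymphocytes, had 66.5 kb in N4-8 and 63.7 kb in N5-8. The third, chr20:46037123-46138334, over NCOA3, a transcriptional coactivator, had 53.1 and 52.6 kb. In each of these 3 the clones differed by less than the step to the next rank. BCL6 itself lay in a much smaller domain, ranked 393 of the 409, with 10.6 kb in N4-8 and 10.3 kb in N5-8.

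RFTN1, a lipid raft protein linked to the B-cell receptor, came next with 47.8 kb in N4-8 and 46.7 kb in N5-8 (chr3:16452335-16564893). ST6GAL1, the sialyltransferase that makes the glycan read by CD22, had 39.2 and 37.7 kb within its body (chr3:186703580-186762579). PLCG2, the phospholipase downstream of the B-cell receptor, had 40.5 and 37.1 kb (chr16:81807475-81872200). The order of these neighbours is not firm, since PLCG2 exceeded ST6GAL1 in N4-8 and fell below it in N5-8. The IGKC domain, chr2:89127489-89171376, was the most densely filled of the 20, with 37.0 kb in N4-8 and 38.9 kb in N5-8, or 84.4% and 88.6% of its span. A domain over FAM167A, at chr8:11271605-11325543, lay 26.0 kb from the kinase gene BLK and had 36.01 and 35.80 kb.

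BTG2, an antiproliferative gene and hypermutation target, had 42.3 kb in N4-8 and 39.1 kb in N5-8 (chr1:203234769-203297844). SMAD3, a transducer of TGF-beta signals, had 31.8 kb in both (chr15:67348450-67427815). DTX1 had 37.6 and 35.5 kb (chr12:113486854-113542240), reaching past its wide peak on both sides. TOX, a nuclear factor of lymphocyte development, had 31.8 kb in N4-8 and 39.1 kb in N5-8 (chr8:59921857-60003400), the widest gap between clones among the 20. N4-8 held the TOX domain in 49 peaks with the widest at 2.46 kb, and N5-8 in 25 peaks with the widest at 10.5 kb.

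A domain over GRHPR, a metabolic enzyme gene, lay 5.06 kb beyond ZCCHC7 in the neighbourhood of PAX5 and had 42.9 kb in N4-8 and 41.2 kb in N5-8 (chr9:37363203-37423890). SYPL1, a vesicle membrane gene, had 37.3 and 37.5 kb (chr7:105689345-105757637). CCDC69 and GM2A, the latter a lysosomal activator protein, shared a domain of 34.8 and 35.7 kb (chr5:150571293-150637301). RIPOR2, an inhibitor of RHOA, had 36.1 and 34.5 kb (chr6:24881619-24949888). The clones differed by less than 2 kb in each of these. OSBPL10, an oxysterol-binding protein gene, had 38.9 kb in N4-8 and 33.7 kb in N5-8 (chr3:31945409-32023633). SEPTIN9 had 33.6 and 34.4 kb (chr17:75416981-75470561), a domain in which both of its wide peaks lie. The last 2 lay in no placed gene. One, chr20:52507064-52559044, had 34.5 and 35.5 kb and lay 1.03 kb from the end of BCAS1 that is not its start. The shared region nearest to the BCAS1 start was 50.2 kb from it. The other, chr6:88585402-88640412, between AKIRIN2 and SPACA1, had 32.5 and 33.0 kb.

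**Figure D2:**
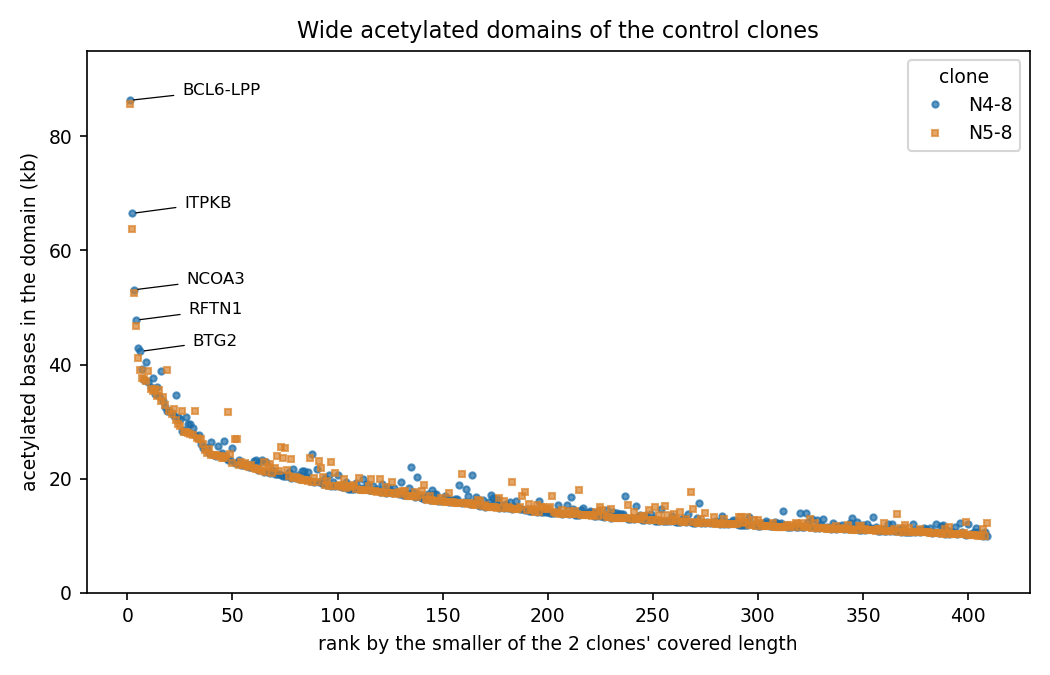
Covered bases in kb of the 409 wide domains in N4-8 (circles) and N5-8 (squares), by rank on the smaller of the 2 values. The first domain, between BCL6 and LPP, stands at 86.3 and 85.6 kb, and 81 domains reach 20 kb in both clones.

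Acetylated starts were counted on lists of B-cell genes and cell type markers. These lists were chosen with earlier results of these data known, so the counts do not test the label of the line. A gene counted as having a start region when a shared region reached within 1 kb of its transcription start. Over all 117 genes of the lists and markers 65.8% did, and 30.8% overlapped a wide domain. The 117 include the 78 genes of the B-cell lists, which hold 35 of the 36 in wide domains. Most of the rest were markers of other cell types. A share over all genes was not computed, so the shares of the lists have no such background. In the B-cell lists 68 of 78 genes (87.2%) had a start region and 35 (44.9%) overlapped a wide domain, whose chance of being overlapped grows with gene length, which was not allowed for. When a region had to cover the start itself, 40 of the 78 genes had one, and 4 of the 6 housekeeping genes. All 6 B cell markers and 7 of 8 germinal-centre markers had a start region. None of the 28 markers of T cells, myeloid cells, liver, neurons and epithelium had one, and all 6 housekeeping genes did. Shared regions did lie within the bodies of 3 of the 28: CD3E had 3, RBFOX3 had 3 and SYT1 had 1. The housekeeping genes overlapped no wide domain. Values given for a start are all covered bases of the shared regions that reach within 1 kb of it, whether or not they cover it. Of the starts given values by name below, those of EBF1, TCF3, SERPINA9, FOXO1, CXCR4, CCND3, CD86, BTG1, PPP1R12C and CREBBP lay outside these regions.

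Among B-lineage factors 8 of 9 had a start region and 5 overlapped a wide domain. IKZF1, a zinc-finger factor of lymphocytes, had 9378 bases in N4-8 and 11093 in N5-8. PAX5, which holds B-cell identity, had 5414 and 5290, and TCF3, an E protein, had 5414 and 5219. EBF1, an early B-cell factor, had 4622 and 4646 bases at its start and 3 wide domains in its body. At EBF1 and TCF3 this is the sum of 2 regions beside the start, which itself lay outside them. ETS1 had none within 1 kb of the start used here, but 13 shared regions within its body.

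Of the 9 germinal-centre factors 7 had a start region and 6 overlapped a wide domain. BCL6 had 10580 bases in N4-8 and 10331 in N5-8, and BCL7A, a chromatin remodelling subunit often mutated in lymphoma, had 9623 and 9616. POU2AF1, the coactivator of the octamer factors, had 5126 and 5469, and IRF8 had 4019 and 3702. The values of the 2 clones were close at all 4. MEF2C, a factor needed for B-cell responses, lacked one at the start used and had 16 shared regions in its body. LMO2 had none in its body, with the nearest shared region 1.502 kb from its start.

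The list of B-cell receptor signalling had a start region at 12 of 12 genes, and several other lists also had one at every gene. With 9 of 12 it had the highest share of genes that overlapped a wide domain. BLK, a kinase of the receptor, had 9953 bases in N4-8 and 9763 in N5-8. CD79B, a signalling chain of the receptor, had 9365 and 8626. MS4A1, which encodes CD20, had 5024 and 5188, and the adaptor BLNK had 5386 and 4838. The remaining 8 starts, from CD81 up to CD22, had between 853 and 4927 bases in either clone.

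Genes that confine cells to the germinal centre or mutate their antibody genes had start regions at 8 of 8. SERPINA9, a protease inhibitor marking these cells, had 4955 bases in N4-8 and 5126 in N5-8. S1PR2, the receptor that holds cells in the follicle, had 4461 and 4510. RGS13, a brake on chemokine signals, had 2896 and 4101. The clones were close at SERPINA9 and S1PR2, and N5-8 had more at RGS13.

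Genes listed for both zones of the germinal centre had start regions. All 6 housekeeping genes had them too, so a start region does not tell which zone state the cells were in. All 4 dark zone genes had a start region, with 4911 bases in N4-8 and 5264 in N5-8 at FOXO1 and short regions at CXCR4, the homing receptor (553 and 616), and CCND3, a cyclin (427 and 355). All 5 light zone genes had one too, with 4632 and 5022 bases at MYC, 3255 and 2924 at CD40, 1029 and 893 at CD86, and 656 and 684 at CD83. In each list a gene encoding a transcription factor, FOXO1 or MYC, had the most covered bases at its start. Of the NF-kB response genes 8 of 8 had a start region, led by TRAF1 (4586 and 5146) and REL (4219 and 6027). NFKB1 (1330 and 1284) and NFKB2 (992 and 1212) had less, and 1 of the 8 overlapped a wide domain.

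Of the 7 genes of class II antigen presentation 5 had a start region. CD74, the invariant chain, had 4999 bases in N4-8 and 4976 in N5-8, HLA-DQA1 had 3917 and 3988, CIITA, the class II transactivator, had 2985 and 3496, and HLA-DRB1 had 1869 and 1817. HLA-DPA1 and HLA-DMB, genes of the same locus, had no shared region at the start or in the body. Both lay in a stretch with no peak of either clone in the lists used here, chr6:32888856-33399485, 510.63 kb long. A stretch without listed peaks does not show that the mark was absent, since the lists alone do not tell whether reads could be placed there or whether all peaks are included. Of 45147 gaps between neighbouring regions 1184 (2.62%) were longer, and the median gap was 1.22 kb.

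The plasma cell genes had the lowest share among the B-cell lists: 1 of 5 had a start region. It was CD27, a memory and plasma cell receptor, with 5938 bases in N4-8 and 5684 in N5-8. PRDM1 and IRF4, the switch genes, had their nearest shared region 238 kb and 78.2 kb away. SDC1, the surface marker CD138, had it 124 kb away, and XBP1, the secretory factor, 26.9 kb away. Among the 7 markers of activated B cells or plasma cells, which include 4 of these genes, FOXP1 alone had a start region. BATF and CCND2 also had none, but a region held by 1 clone only lay within 1 kb of the BATF start. As in the class II locus, the lack of a listed peak at these genes does not show that the mark was absent.

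Known targets of hypermutation or translocation had start regions at 9 of 10 and overlapped wide domains at 7. RHOH had 12802 bases in N4-8 and 12864 in N5-8, the most of any gene on the lists. BTG2 had 4580 and 4377, and BTG1, its relative, had 3089 and 3289. At these 3 starts the clones were close. MIR155HG, the host of another lymphoid microRNA, was the member without one, with 2 shared regions in its body. The edited gene PPP1R12C had 1194 bases at its start in N4-8 and 1183 in N5-8. EP300 had 1530 and 1535, and CREBBP had 193 and 144, so all 3 had a start region and none overlapped a wide domain.

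**Figure D3:**
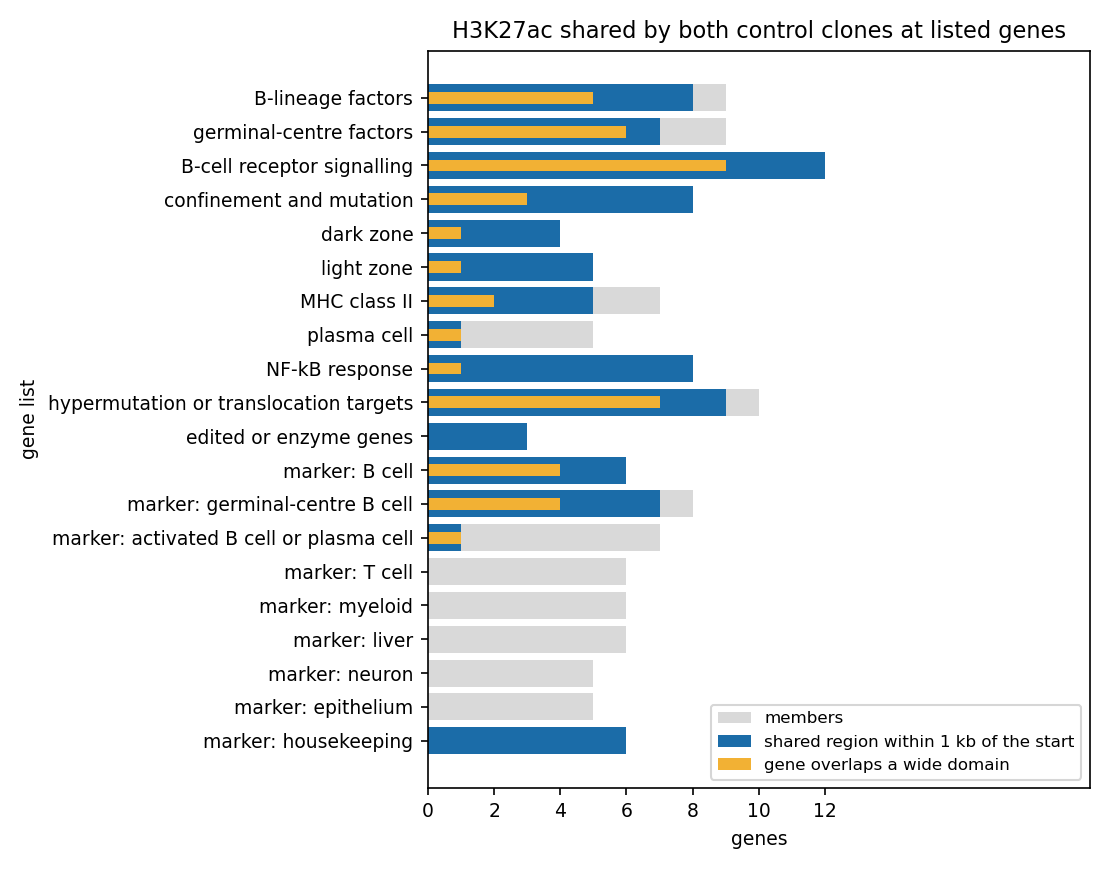
Number of genes in each list (grey), with a shared region within 1 kb of the start (blue) and overlapping a wide domain (yellow), with marker lists below. Start regions cover 68 of the 78 genes of the B-cell lists, 1 of the 5 plasma cell genes and none of the 28 markers of other cell types.

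Disagreement between the clones lay mostly in short, low-scoring peaks. N4-8 alone held 9997 regions (22.1% of all 45169) and N5-8 alone held 3690 (8.17%), with median widths of 175 and 163 bases. Of peaks under 250 bases 46.8% in N4-8 and 73.5% in N5-8 overlapped the other list. Of peaks of at least 5 kb all 254 and all 313 did. An overlap of 1 base sufficed, which a wide peak meets more easily than a short one. By the authors' score per peak, for which no source used here states a meaning, peaks found in both lists had a median of 61 in N4-8 and 53 in N5-8, and the rest 30 and 29. With the peaks of each clone divided into 4 classes of equal size by score, 40.8% of the lowest class in N4-8 and 71.5% in N5-8 overlapped the other list, against 96.5% and 99.3% in class 3. Regions of at least 1 kb held by 1 clone were rare, 51 in N4-8 and 21 in N5-8, beside 8635 shared regions with 1 kb or more covered in both. When both lists were held to their 39377 best-scoring peaks, the regions of 1 clone numbered 5871 in N4-8 and 5189 in N5-8. Only the N4-8 list was shortened by this, since N5-8 had 39377 peaks in all. Equal list length brings these counts close together largely by construction, so the counts do not test the excess of N4-8.

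**Figure D4:**
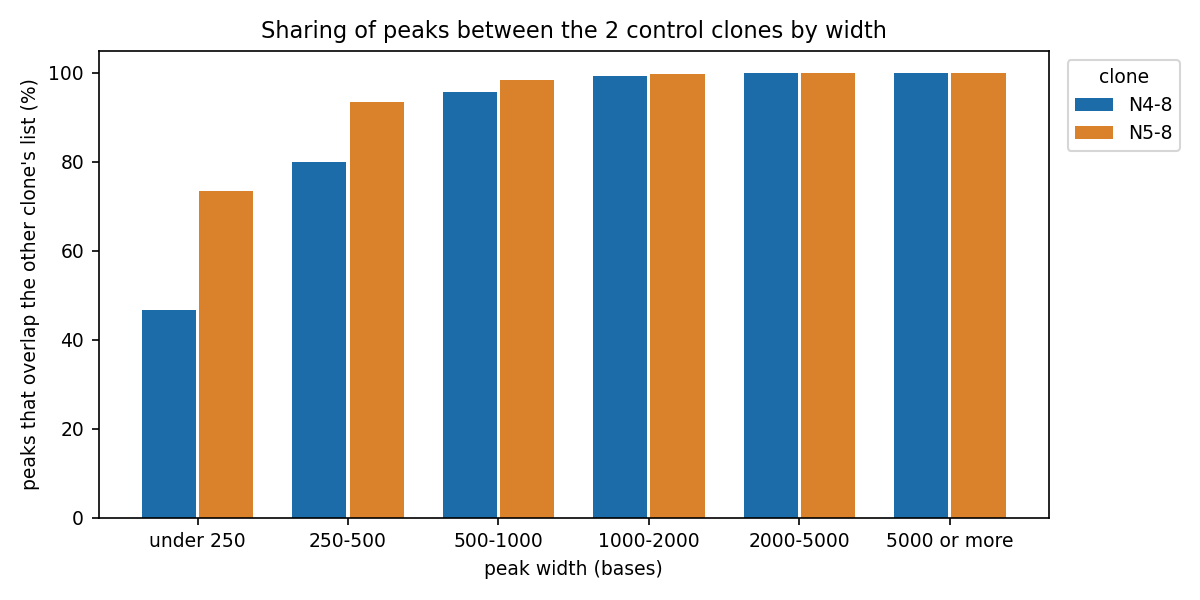
Share of each clone's peaks, in percent, that overlap a peak of the other clone, by peak width in bases, for N4-8 and N5-8. Sharing rises from 46.8% and 73.5% below 250 bases to 100% at 5 kb and above. An overlap of 1 base counts, which a wide peak meets more easily.

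Of the 31482 shared regions 9.41% differed at least 2-fold in covered bases, 6.36% being higher in N4-8 (2003 regions) and 3.04% in N5-8 (958 regions). The direction turned with size. Of 4836 regions with a mean under 250 bases 426 were at least 2-fold higher in N4-8 and 181 in N5-8, while of 3382 with a mean of at least 2 kb 5 were higher in N4-8 and 22 in N5-8. The share past 2-fold was 12.6% in the first class and 0.798% in the last. Scaling each clone by its median brought the counts to 1576 and 1214, while at equal list length they were 1913 and 788. All 409 wide domains lay within 1.5-fold, from 0.756 to 1.44 for N5-8 over N4-8, and 236 were larger in N4-8 and 173 in N5-8. These domains were chosen for being wide in both clones, which narrows this range.

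Of the 5 wide domains that differed most, 2 lay at genes of the B-cell lists, MEF2C and BACH2. In MEF2C (chr5:88114247-88146650) 12.3 kb was covered in N4-8 and 17.8 kb in N5-8, a 1.44-fold difference, with 24 peaks in N4-8 and 10 in N5-8. Over the start of PTPRC, which encodes CD45 (chr1:198584060-198654382), it was 23.3 and 31.8 kb, 1.36-fold. In ZCCHC7, the neighbour of PAX5 (chr9:37280972-37305263), it was 15.8 and 20.9 kb, 1.32-fold. In these 3 and in MAPK10, a JNK kinase gene (chr4:87186767-87229207, 13.69 and 17.99 kb), N5-8 had more bases in fewer peaks. BACH2, a repressor that delays plasma cell fate, went the other way at chr6:90987875-91027263, with 20.6 kb in N4-8 and 15.6 kb in N5-8. With 1 library a clone these differences have no replicate check. In all 5 the clone with more bases held them in fewer peaks, and the part of this in the differences was not tested. Over all wide domains N4-8 had more peaks in 170 and N5-8 in 159. Over all shared regions N4-8 had more peaks in 2551 and N5-8 in 3138.

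The 5 widest regions of each clone alone lay outside wide domains, although 872 regions of N4-8 alone and 438 of N5-8 alone lay within the spans of such domains. In N5-8 the widest was chr7:114867947-114872021, 4075 bases in no placed gene, followed by chr11:24907821-24910618 in LUZP2 with 2798. The next were chr6:159482797-159484681 with 1885, chr3:29451867-29453583 in RBMS3 with 1717 and chr9:2493314-2494834 with 1521. In N4-8 the widest was chr5:65808921-65811529 with 2609 bases, followed by chr3:71546677-71548382 with 1706, within FOXP1. The start of this forkhead factor of B cells had shared regions within 1 kb. The remaining ones were chr1:44533343-44534968 with 1626, chr10:124066885-124068494 in BTBD16 with 1610 and chr17:20579317-20580834 with 1518. Of these 10 regions FOXP1 was the only gene also on the B-cell lists.

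Across chromosomes the landscape followed gene density. Shared regions numbered 10.9 per Mb in all, 30.6 on chromosome 19, 21.2 on chromosome 17 and 6.07 on chromosome 4. Over the 22 chromosomes the density of shared regions and that of protein-coding genes had a Spearman rho of 0.893, and for wide domains it was 0.565. Wide domains were few on each chromosome, from 3 on chromosome 18 to 41 on chromosome 2, and small counts alone can lower rho. The 2 values of rho were therefore not compared. Chromosome 19 had 2.54 wide domains per 10 Mb, chromosome 20 had 2.38 and chromosome 18 had 0.384. Regions held by N4-8 alone went the other way (rho -0.730), from 12.46% of the regions on chromosome 19 to 27.3% on chromosome 4. Regions held by N5-8 alone ranged from 6.17% on chromosome 16 to 10.8% on chromosome 9. The points share the same 2 libraries and differ in base composition, and no test was made.

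**Figure D5:**
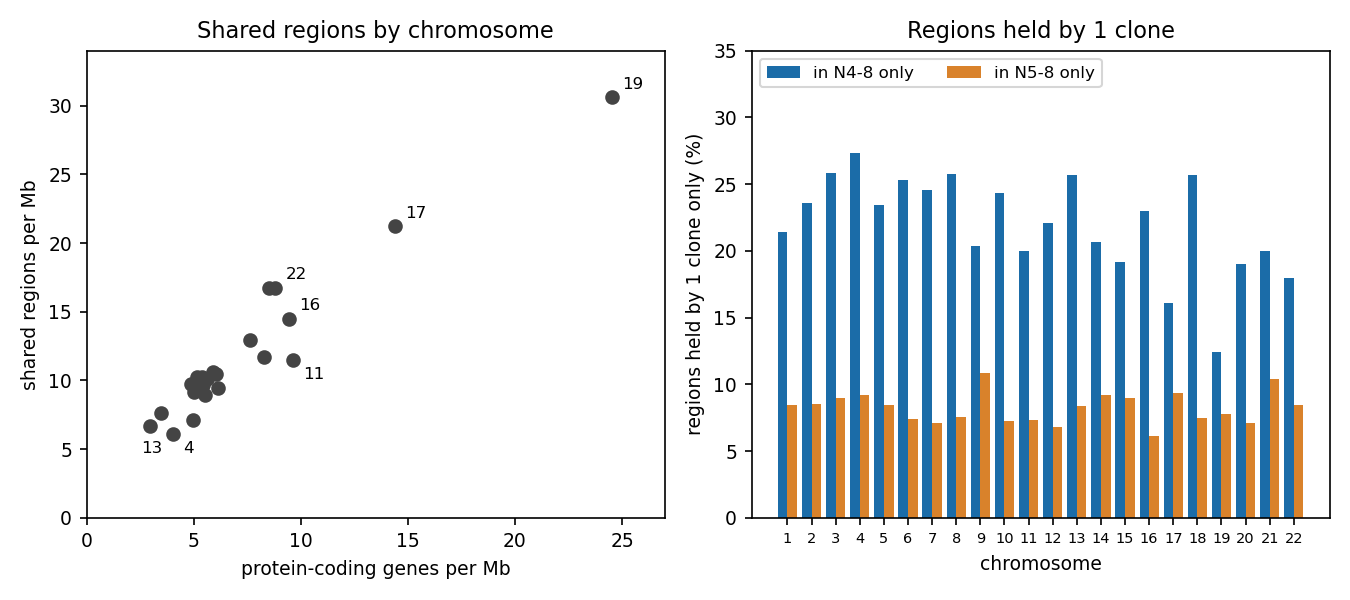
Left, shared regions per Mb against protein-coding genes per Mb for the 22 autosomes, with some numbered. Right, percent of regions on each chromosome held by N4-8 alone or N5-8 alone; chromosome 19 has the highest density (30.6 per Mb) and the lowest share for N4-8 alone (12.46%).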

How the data were processed

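H3K27ac was measured by ChIP-seq in 2 control clones. Per the labels' protocols, chromatin was sheared to 200 to 500 bp and sequenced as paired 150 bp reads. CASAVA 1.8, Bowtie2 2.1.0, SAMtools 0.1.19 and build hg19 are named in the submitters' processing notes. Peaks were called separately in N4-8 and N5-8, with the matching input as the control, per the file headers. No source used here names the peak caller. The authors deposited for each peak a chromosome, a start and end position, and a score without a stated meaning (19 to 170 in N4-8 and 20 to 170 in N5-8 on the autosomes), which was used only to rank peaks within a list. Starts were read as counted from 0, as the track format has it.

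Overlaps, stitching and counts were computed in Python 3.11.15 with pandas 2.3.3 and tested on simulated data with known answers. A wide domain joins shared regions across gaps of up to 12.5 kb and has at least 10 kb covered in each clone. No hg19 annotation was used: positions of 151 genes, 1 start each, are general knowledge, and none is printed. Against the RefSeq table of GRCh38, all 151 lay on the same chromosome, 111 had a length within 2%, and 42 of 50 neighbouring pairs were spaced within 1 kb of the table. Chromosome lengths of hg19 are general knowledge too. Genes named are those at the 15 widest peaks and 20 largest domains, up to 4 of each list with the most covered bases at the start, each member without a start region, and the genes at the 5 widest regions of each clone and the 5 domains that differ most. Genes at those top loci that are on no list were placed after the loci were seen and are not among the 117. The values of 1 list member are not reported here. The members and lists were chosen with earlier results of these data known. Other overlap, score, list length, gap, distance and fold settings were tried. Clones with CREBBP or EP300 removed and chromosomes X and Y were not used here.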

Additional observations from a re-analysis of the deposited data

How the results depend on the processing

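Of 32 alternative settings 22 left the value within its tolerance and 10 moved it. With only the upper 50% of scores kept, shared regions fell to 17037 and wide domains to 260. Wide domains numbered 269 with a gap of 5 kb, 1274 and 81 with a covered minimum of 5 and 20 kb, and 233 when peaks had to overlap by 50% of both widths. In that last setting alone the stretch between BCL6 and LPP lost its first rank. Leaving out either clone gave 467 to 508 wide domains and kept 10 of the 15 widest peaks. Of the 20 largest domains 13 (gap of 25 kb) to 20 stayed among the first 20. B-cell genes with a start region fell to 40 when the region had to cover the start itself, where housekeeping genes fell to 4 of 6. At a distance of 5 kb 1 of the 28 markers of other cell types, NEUROD1, gained a region. Shared regions that differed between clones numbered 6752 at 1.5-fold and 919 at 3-fold. No paired analysis was possible because only 1 group, of 2 clones, was compared within itself. Library depth is unknown, so short peaks held by 1 clone cannot be told apart from peaks missed in the other, and every gene result rests on 1 start per gene.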

Other observations

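In some windows of 1 Mb the clones disagreed over most of their regions; these windows were picked after their values were seen. Among 1077 windows with at least 15 regions, a median of 21.4% of regions was held by N4-8 alone and 6.67% by N5-8 alone. N4-8 alone held 18 of 24 regions on chromosome 7 from 18 to 19 Mb, with 9.77 kb covered against 3.16 kb in N5-8, and 18 of 25 on chromosome 5 from 123 to 124 Mb, with 21.3 against 11.7 kb. N5-8 alone held 13 of 22 regions on chromosome 7 from 88 to 89 Mb, with 19.4 kb covered against 7.77 kb in N4-8, and 11 of 20 on chromosome 9 from 2 to 3 Mb, with 10.8 against 5.36 kb. Windows with more than 50% of regions in 1 clone numbered 20 for N4-8 and 2 for N5-8, and in 113 windows N5-8 alone held more regions than N4-8 alone, against the trend of the lists as a whole. No gene was placed in these windows.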
